A study of Homo sapiens with 28 samples.

Results

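The genes described here are PTGS2 and PLA2G4A, neighbours on chromosome 1, and the DNA around and between them. A peak was counted when it overlapped the window chr1:186550000-187010000 of build hg19, which is 460.0 kb long. PTGS2 lies near 186.65 Mb in it and PLA2G4A between 186.80 and 186.96 Mb. Of 1123337 peaks in 28 lists, 306 met this rule. The nearest peak outside the window lay 4983 bp below its lower end, and the nearest inside lay 12641 bp above that end. At the upper end these distances were 10679 bp outside and 1687 bp inside.

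The lists come from CUT&RUN, in which a nuclease tethered to an antibody cuts the DNA beside its target. All cells were IMR-90 ER:Ras, human fetal lung fibroblasts in which 4-hydroxytamoxifen (4-OHT) switches on an oncogenic Ras and drives the cells into senescence. There were 8 lists for FOXF1, a forkhead transcription factor of mesenchyme, 6 for the phosphorylated form of c-JUN (p-c-JUN), which is part of the AP-1 factor, and 14 for H3K27ac, an acetylation of active enhancers and promoters. Knockdowns by small interfering RNA were made in senescent cells. They were directed against FOXF1 and FOXF2 (siFOXF1/2, with all 3 antibodies), JUN family members (JUN KD, with FOXF1 and H3K27ac) or the acetyltransferases p300 and CBP (sip300/CBP, with H3K27ac). Senescent cells given control siRNA (Sen) and cells titled proliferating (Pro) were profiled with all 3 antibodies, and the sip300/CBP experiment had a Sen control of its own. Each group had 2 libraries, except H3K27ac in Sen cells, which had replicates 1 and 2 in a first deposit and replicates 3 and 4, with the JUN KD libraries, in a second.

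The labels leave limits on these groups. The sample labels of Pro carry the same control siRNA, the same 100 nM 4-OHT for 6 days and the same senescent cell type as Sen, so Pro rests on its title. The titles of JUN KD name cJUN and JUND, but the treatment label adds JUNB. The sources do not say whether replicates were separate cultures, so p-values cover library-to-library spread that could be technical. Mapped read numbers were not given in the sources used here and depth is unknown. The lists held 133 to 93443 peaks, and the list length is therefore given beside the counts it can set.

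PTGS2 encodes cyclooxygenase-2, the inducible enzyme that turns arachidonic acid into prostaglandin H2, the precursor of the prostaglandins. PLA2G4A encodes cytosolic phospholipase A2 alpha, which releases arachidonic acid from membrane phospholipids and so acts one step earlier. PTGS2 is a known target of AP-1, C/EBP and NF-kappaB factors in cells given growth or inflammatory signals, and prostaglandin E2 is among the products that senescent fibroblasts secrete.

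The bases just before each gene's start are shown because H3K27ac peaks lay near both genes in most libraries. They are the 250 bases upstream of the start in RefSeq, on build GRCh38.p14, at chr1:186680424-186680673 on the minus strand for PTGS2 and at chr1:186828699-186828948 on the plus strand for PLA2G4A. This is another build than that of the peaks, so whether a peak covers these bases was not analysed here. Capitals in PTGS2 mark, from left to right, a C/EBP motif, a variant of the cAMP response element and a TATA box.
PTGS2: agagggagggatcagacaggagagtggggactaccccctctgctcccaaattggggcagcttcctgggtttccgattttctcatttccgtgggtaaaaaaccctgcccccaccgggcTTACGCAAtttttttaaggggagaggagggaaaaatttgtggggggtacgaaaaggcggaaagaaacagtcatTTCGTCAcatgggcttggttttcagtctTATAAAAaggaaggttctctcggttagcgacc
PLA2G4A: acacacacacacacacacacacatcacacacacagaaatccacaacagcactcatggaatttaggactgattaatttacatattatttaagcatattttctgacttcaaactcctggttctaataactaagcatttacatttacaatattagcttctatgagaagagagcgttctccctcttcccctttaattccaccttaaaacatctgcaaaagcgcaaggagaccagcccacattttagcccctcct
The C/EBP match began 133 bases, the cAMP response element variant 60 bases and the TATA box 32 bases before the PTGS2 start. Both strands were searched, for a chosen list of motifs that held no NF-kappaB motif. TTNCGNAA, the C/EBP motif, occurs in 2.18% of 35116 RefSeq promoters of this length, TTCGTCA in 0.814% and TATAAAA in 4.18%. The PLA2G4A promoter held none of these, and neither promoter held the AP-1 motif TGANTCA (in 6.57% of promoters), the full cAMP response element TGACGTCA (1.65%) or the forkhead motif TGTTTAC (2.98%). The PTGS2 promoter was 50.4% G and C and the PLA2G4A promoter 38.8%.

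Peaks of the 3 antibodies were spread over the whole window. Joined over all lists of an antibody, they made 21 FOXF1 regions (median width 388 bp), 47 p-c-JUN regions (447 bp) and 44 H3K27ac regions (513.5 bp). Between the genes lay 9 FOXF1, 16 p-c-JUN and 16 H3K27ac regions. Inside PLA2G4A lay another 5 FOXF1, 14 p-c-JUN and 16 H3K27ac regions, and on the lower side of PTGS2, which is the side its transcription runs towards, 3, 7 and 6. Within 10 kb of the PTGS2 mark there were 1 FOXF1, 3 p-c-JUN and 2 H3K27ac regions. At the PLA2G4A start there were 2 p-c-JUN regions and 1 H3K27ac region, and no FOXF1 region.

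**Figure D1:**
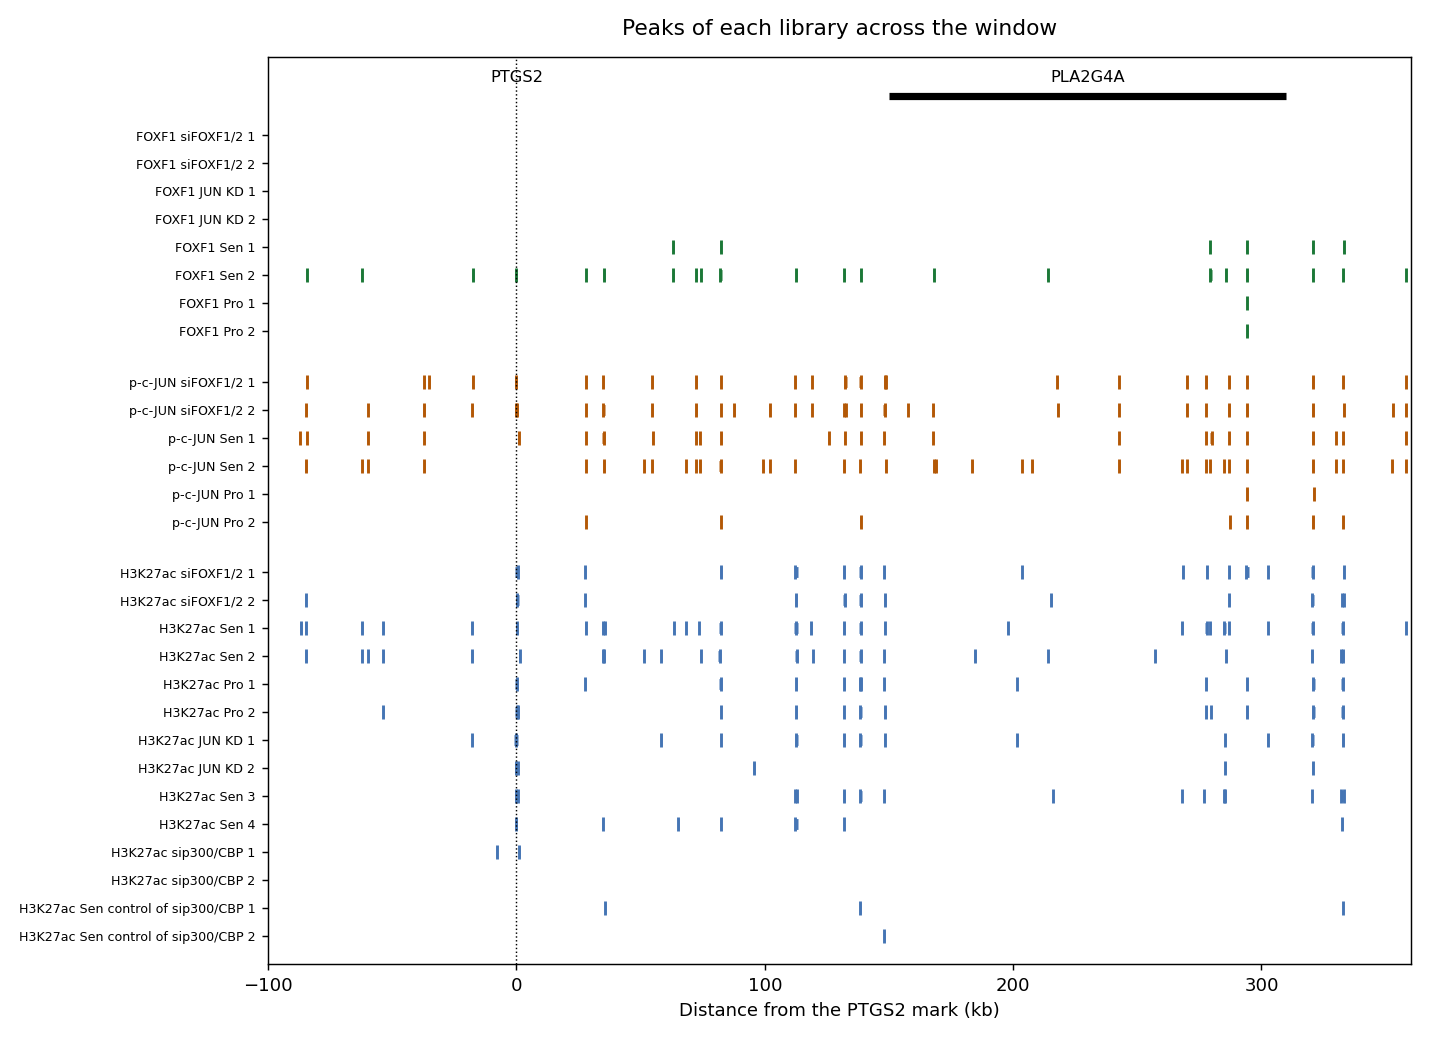
Peaks of each library as bars, with the summit as a tick, against the distance in kb from the PTGS2 mark. Rows are libraries, the dotted line is the PTGS2 mark and the black bar PLA2G4A. The 4 FOXF1 lists after siFOXF1/2 and JUN KD are empty, and the p-c-JUN rows of siFOXF1/2 and Sen cells are dense beside those of Pro cells.

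Acetylation near PTGS2 itself was listed in every condition except the Sen control of sip300/CBP. An H3K27ac region at chr1:186649219-186651498 held a peak in 11 of 14 libraries. Fold enrichment here means the authors' peak caller value at the summit over the local background, which ranks peaks within a list and is not compared between lists. At this region it was 4.95 and 5.14 in siFOXF1/2 cells, 5.88 and 4.07 in JUN KD cells, 3.64 and 2.77 in Sen replicates 1 and 2, 3.84 and 3.64 in Sen replicates 3 and 4, and 4.33 and 4.26 in Pro cells. The 3 libraries without it were both libraries of that control and sip300/CBP replicate 2, with some of the shortest lists for H3K27ac. The peak of Sen replicate 2, at 186651149 to 186651498, lay at the upper edge of the region and did not overlap that of Sen replicate 1. FOXF1 had a peak here in Sen replicate 2, with a fold of 4.31, and in no other list.

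At the PLA2G4A start, chr1:186797847-186798897, H3K27ac was found in 9 of 14 libraries. Its fold was 7.01 and 6.14 in siFOXF1/2 cells, 5.96 and 4.06 in Sen replicates 1 and 2, and 5.12 and 5.14 in Pro cells. It was also listed in JUN KD replicate 1, in Sen replicate 3 and in replicate 2 of the Sen control of sip300/CBP. In p-c-JUN lists this site had folds up to 5.29 and 5.26 in siFOXF1/2 cells. The Sen lists each had a peak there, 186798019 to 186798343 in replicate 1 (fold 4.64) and 186798573 to 186798784 in replicate 2 (3.78), which did not overlap and so did not count as gained. Neither Pro list held a peak.

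FOXF1 peaks in the window were more numerous in the Sen lists than in the other FOXF1 lists, which were all shorter. Both siFOXF1/2 lists held 0 window peaks, as did both JUN KD lists, against 6 and 21 in Sen cells and 1 and 1 in Pro cells. These lists were of very unequal length, with 186 and 133 peaks after siFOXF1/2, 378 and 883 after JUN KD, 13603 and 40537 in Sen cells and 3441 and 11061 in Pro cells. As a share of the list, the window took 4.41 peaks per 10000 in Sen replicate 1 (95% exact Clopper-Pearson interval 1.62 to 9.60). In Sen replicate 2 it took 5.18 (3.21 to 7.92). Pro cells had 2.91 (0.0736 to 16.2) and 0.904 (0.0229 to 5.04), each from 1 peak, and these intervals overlap those of Sen cells. Taken as 3 counts of the list, a count of 0 allows a share of up to 1.61% and 2.26% in the siFOXF1/2 lists and 0.794% and 0.340% in the JUN KD lists. The upper ends of the exact intervals are 1.96%, 2.74%, 0.971% and 0.417%, so the Sen shares would not have been detectable in these lists. Intervals and limits cover counting error alone. The siFOXF1/2 lists also had narrower peaks, with a median width of 108 and 103 bp against 285 and 343 bp in Sen cells, and the sources do not say whether they were called with the same settings.

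**Figure D2:**
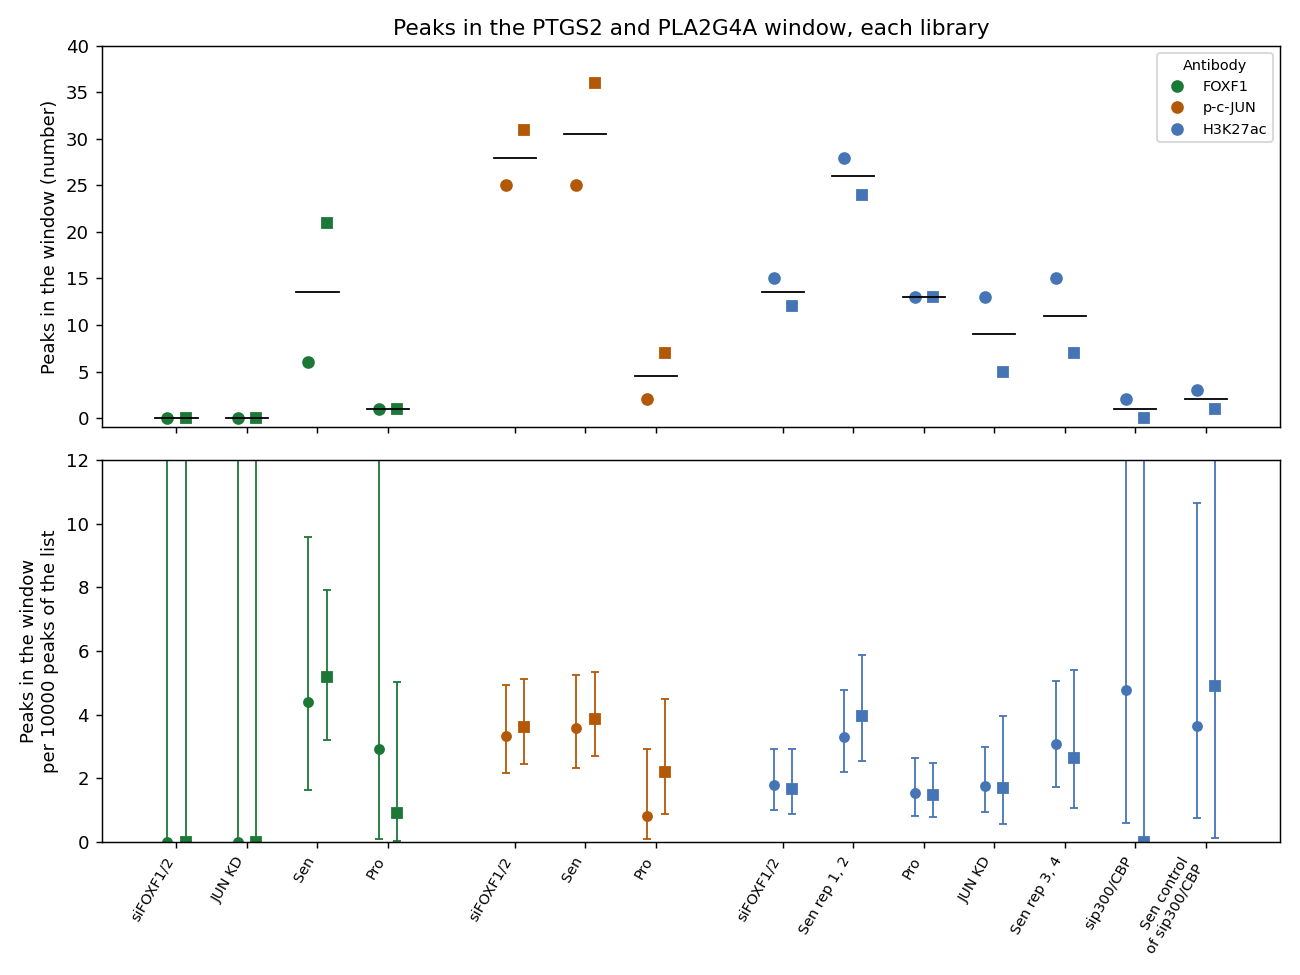
Number of window peaks in each library (upper panel, with the group mean as a line) and the same per 10000 peaks of the list with its exact 95% interval (lower panel), by antibody and group; circles and squares are the lower and higher replicate number. Point values of H3K27ac in Sen replicates 1 to 4 lie between 2.62 and 3.94 per 10000, above those of siFOXF1/2, JUN KD and Pro libraries, but most of the intervals overlap. Intervals of very short lists run past the top of the lower panel.

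The log2 number of window peaks, after adding 1, was 2.63 ± 0.826 higher for FOXF1 in Sen than in Pro cells (SE, n = 2 and 2). The exact two-sided permutation p was 0.33, the smallest that 2 against 2 libraries can give. The same value was −3.63 ± 0.826 for siFOXF1/2 minus Sen and for JUN KD minus Sen, each also with an exact permutation p of 0.33. None of the 9 comparisons of peak number in this window could therefore pass a threshold of 0.05.

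A region counted as gained where both libraries of the first-named group, and neither of the other, had a peak there. The opposite case counted as lost. For FOXF1 in Sen against Pro cells, 5 of 21 regions were gained and 0 lost, beside 13.1% gained and 0.350% lost over all regions of these lists. Without Sen replicate 1, the shorter list, 20 were gained. When every list was cut back to its 3441 best peaks, the Sen lists held 2 and 2 window peaks and the Pro lists 1 and 0, and 0 regions were gained.

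The gained FOXF1 regions ran from between the genes to beyond PLA2G4A. Between the genes, chr1:186713021-186713264 had folds of 5.41 and 8.94 in Sen replicates 1 and 2. Nearer PLA2G4A, chr1:186731930-186732624 had 5.81 and 8.37. Inside PLA2G4A, chr1:186929105-186930070 had 7.23 and 5.05.

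The other gained pair lay past the end of PLA2G4A. At chr1:186970221-186970800 the folds were 8.04 and 6.53, the highest mean of the 6 FOXF1 regions held by both Sen lists, and at chr1:186982899-186983146 they were 5.35 and 6.03. The sixth region, chr1:186943922-186944502 in PLA2G4A, was held in both states, with folds of 5.63 and 7.15 in Sen cells and 4.31 and 4.66 in Pro cells. All were modest peaks of their lists. The best placed ranked in the top 14.0% of Sen replicate 1 and the top 7.84% of replicate 2.

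These 6 regions had no peak after either knockdown. Thus 6 of 21 regions were lost and 0 gained after siFOXF1/2, beside 26.2% lost and 0.0607% gained over all regions, and 6 of 21 lost and 0 gained in JUN KD cells, beside 25.4% and 0.148%. Both shares were near those of the whole lists, and both comparisons use the same Sen libraries. The FOXF1 lists of JUN KD come from the second deposit and those of Sen from the first, so this difference cannot be told apart from one between deposits. Without Sen replicate 1, 21 regions were lost in each. With lists limited to the length of the shortest, no Sen list held a window peak and 0 regions were lost.

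Sen FOXF1 regions mostly lay where p-c-JUN also had peaks, in the window as over the genome. Of the 6 held by both Sen lists, 5 overlapped a p-c-JUN region of both Sen lists and 3 an H3K27ac region of Sen replicates 1 and 2. Over the genome these shares were 73.9% and 69.1% of 11287 regions. The exception for p-c-JUN was chr1:186713021-186713264, whose summit was 5142 bp from the nearest p-c-JUN summit of one Sen list and 8280 bp from that of the other. In the Sen list where it was farther, the nearest p-c-JUN summit lay 22 to 120 bp from the FOXF1 summit at the regions past PLA2G4A and at the region held in both states, and 495 and 625 bp away at 186731930 and 186929105. With summits within 200 bp in both lists as the rule, 3 of 6 regions were shared, beside 51.5% over the genome.

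**Figure D3:**
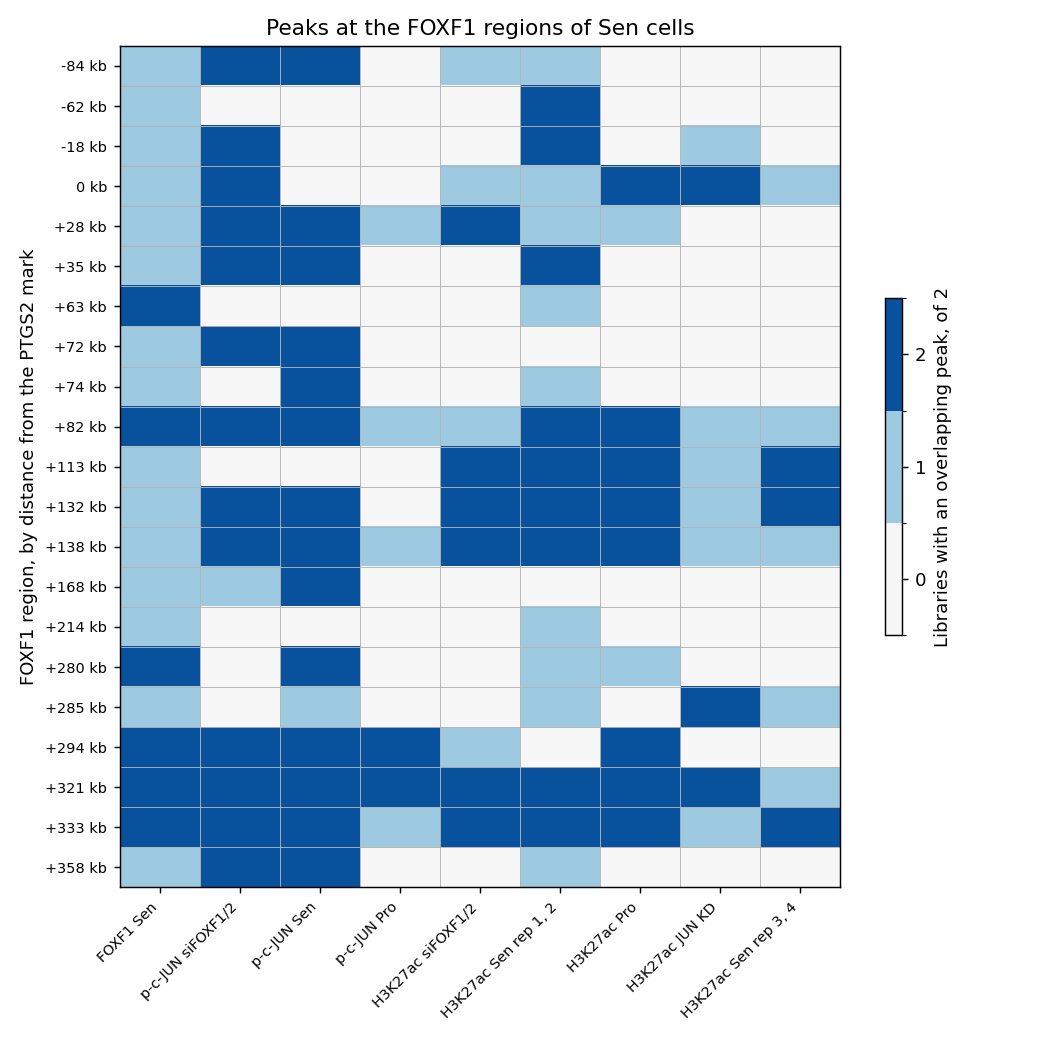
The 21 FOXF1 regions of Sen cells, by distance from the PTGS2 mark, and the number of libraries of each p-c-JUN and H3K27ac group with a peak overlapping them. For p-c-JUN, 15 regions had no peak in either Pro library, and 14 had one in both Sen libraries, whose lists were longer.

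The 21 regions of either Sen list give the fuller picture, since 15 were listed in replicate 2 alone. Of these 21, p-c-JUN overlapped 13 in both siFOXF1/2 lists, 14 in both Sen lists and 2 in both Pro lists. H3K27ac overlapped 6 in both siFOXF1/2 lists, 9 in both lists of Sen replicates 1 and 2 and 8 in both Pro lists. Genome shares for the siFOXF1/2 and Pro counts were not computed. The p-c-JUN lists of Pro cells were also shorter, with 24808 and 32136 peaks against 70177 and 93443 in Sen cells, which can set these counts. Counted against regions that both Sen lists hold, 14 of 21 overlapped p-c-JUN, beside 56.8% of 42746 such FOXF1 regions over the genome, and 10 of 21 overlapped H3K27ac, beside 53.2%.

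The p-c-JUN peaks around the prostaglandin genes were more numerous in Sen than in Pro cells. Sen lists held 25 and 36 window peaks, against 2 and 7 in Pro lists, and the groups did not overlap. The list lengths were 70177 and 93443 in Sen and 24808 and 32136 in Pro cells. Per 10000 peaks, the window took 3.56 and 3.85 in Sen and 0.806 (0.0976 to 2.91) and 2.18 (0.876 to 4.49) in Pro cells, with overlapping intervals. The difference in log2 peak number was 2.66 ± 0.752 (SE, n = 2 and 2; exact permutation test, two-sided, p = 0.33). With all lists limited to 24808 peaks, the Sen lists kept 10 and 11 window peaks and the Pro lists 2 and 6.

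The strongest p-c-JUN region of Sen cells lay 28.0 kb from the PTGS2 mark, on the upstream side of that gene. At chr1:186677860-186678148 the fold was 20.9 and 19.2 in Sen cells, in the top 2.08% and 2.88% of these lists, and 7.96 in Pro replicate 2 with no peak in Pro replicate 1. The summit pileups behind these folds, solved from fold and p, were 59 and 43 fragments in Sen cells (95% exact Poisson intervals 44.9 to 76.1 and 31.1 to 57.9) and 13 in Pro replicate 2 (6.92 to 22.2). These intervals cover counting error alone and depth is unknown, so pileups, like folds, are not compared between lists. FOXF1 had a peak here in Sen replicate 2, with a fold of 5.27.

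**Figure D4:**
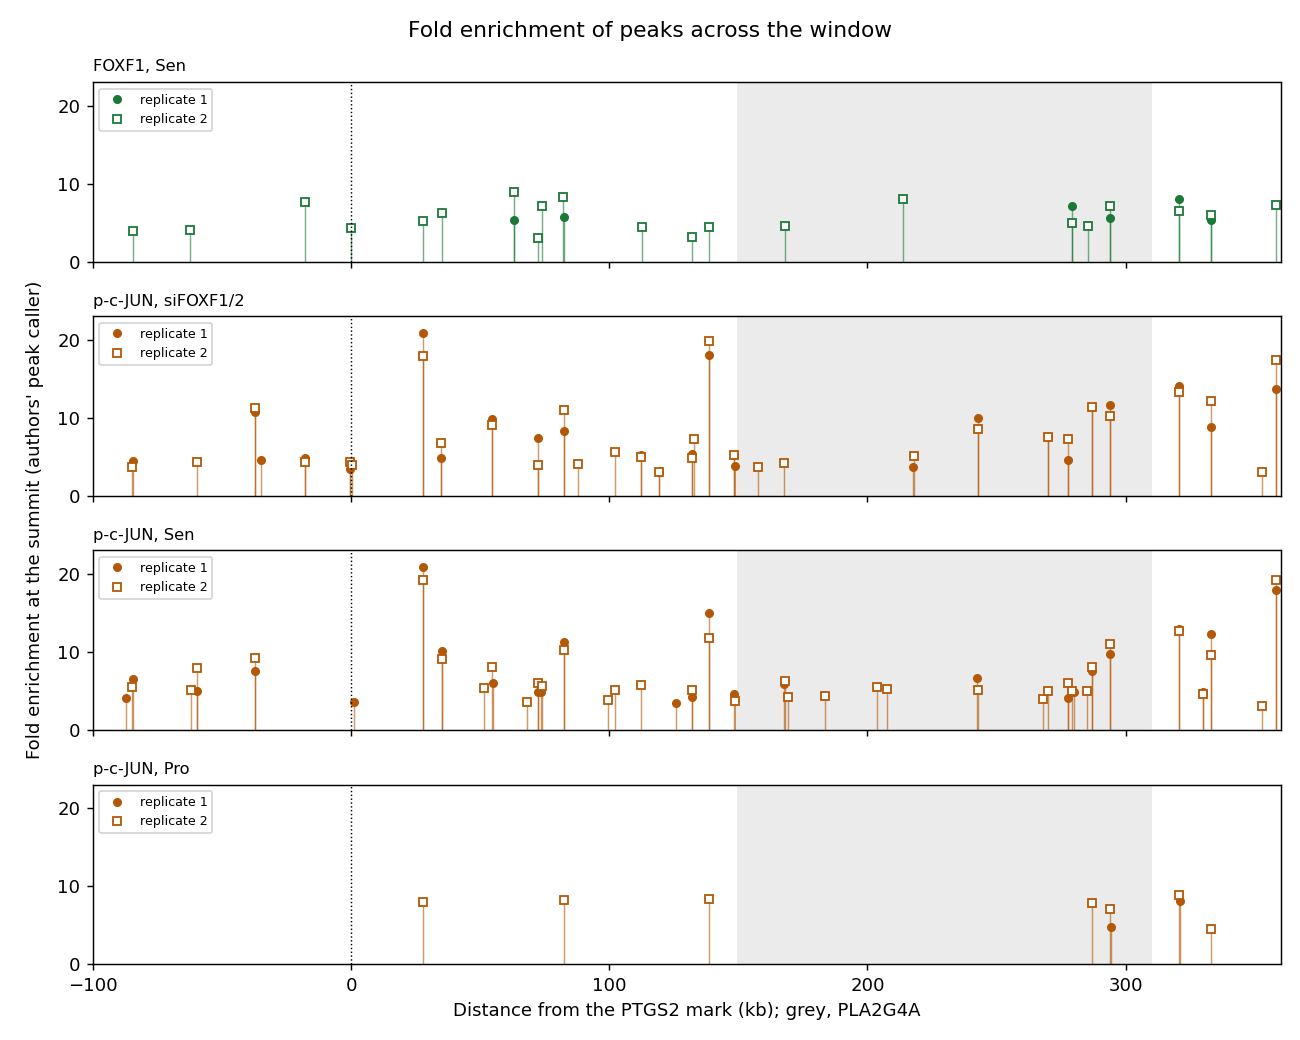
Fold enrichment at each peak summit, in the authors' units, against the distance in kb from the PTGS2 mark, for FOXF1 in Sen cells and p-c-JUN in siFOXF1/2, Sen and Pro cells; filled circles are replicate 1, open squares replicate 2, and the grey band is PLA2G4A. In p-c-JUN the same few sites stand highest in Sen and siFOXF1/2 lists, at 20.9 and below; heights rank peaks within a list.

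Next in strength was chr1:187007845-187008313, at the upper end of the window, with folds of 17.9 and 19.2 in Sen cells and no peak in Pro cells. Upstream of the PLA2G4A start, chr1:186788206-186788940 had 15.0 and 11.8 in Sen cells and 8.34 in Pro replicate 2. Past the end of PLA2G4A, chr1:186970373-186971161 had 13.0 and 12.6 in Sen cells and 8.11 and 8.83 in Pro cells, and chr1:186982838-186983194 had 12.2 and 9.63 in Sen cells and 4.53 in Pro replicate 2. Both of these last sites carried FOXF1 in both Sen lists.

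Of 40 p-c-JUN regions in this comparison, 14 were gained in Sen cells and 0 lost, beside 28.0% gained and 0.307% lost over all regions. A further 2 (5.00%) were held by all 4 lists, beside 18.1% over all regions. Of the 14, 3 lay on the lower side of PTGS2, 5 between the genes, 4 in PLA2G4A and 2 beyond it. Without Sen replicate 1, 29 regions were gained. With lists of equal length 4 were gained, 3 of them among the 14.

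The 10 gained p-c-JUN regions that ranked best included the one at 187007845, given above. On the lower side of PTGS2, chr1:186612639-186613211 had folds of 7.58 and 9.19 in Sen replicates 1 and 2, and chr1:186589889-186590353 had 5.05 and 7.91. Between the genes, chr1:186684634-186685780 had 10.1 and 9.17 and chr1:186704522-186705009 had 6.08 and 8.04. These sites ranged over both flanks of PTGS2.

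Farther up, chr1:186722292-186722598 had 4.84 and 6.05 and chr1:186723644-186724349 had 4.95 and 5.71. In PLA2G4A, chr1:186817571-186818049 had 5.89 and 6.36, chr1:186927557-186927981 had 4.16 and 6.06, and chr1:186929125-186930069 had 4.95 and 5.04. Of all 14 gained regions, 8 overlapped a FOXF1 peak in either Sen list and 1 in both. Over the genome these shares of gained p-c-JUN regions were 28.5% and 7.63%.

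The numbers of p-c-JUN peaks around the genes overlapped between siFOXF1/2 and Sen cells. They were 25 and 31, against 25 and 36, in lists of 75005 and 86110 peaks against 70177 and 93443. The log2 difference was −0.105 ± 0.295 (SE, n = 2 and 2; exact permutation test, two-sided, p = 1), and it turned positive without siFOXF1/2 replicate 1 (0.0451) or without Sen replicate 2 (0.15). The strongest region, near PTGS2, had folds of 20.9 and 17.9 in siFOXF1/2 cells, with pileups of 74 (58.1 to 92.9) and 47 (34.5 to 62.5). In Sen cells its folds were 20.9 and 19.2, and neither folds nor pileups are compared between lists. Of 47 regions, 17 were held by all 4 lists (36.2%, beside 35.9% over all regions).

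Where FOXF1 and FOXF2 were depleted, 4 of 47 p-c-JUN regions were gained and 3 lost, beside 4.47% and 4.03% over all regions. Gained were chr1:186632094-186632392 on the lower side of PTGS2 (folds 4.93 and 4.35), chr1:186649227-186649836 at the PTGS2 mark (3.45 and 4.36), chr1:186768854-186769172 between the genes (3.03 and 3.11) and chr1:186867793-186868165 in PLA2G4A (3.67 and 5.18). All were weak peaks, and 0 of the 4 had −log10 q of 5 or more in both lists. Near the PTGS2 mark, Sen replicate 1 also had a p-c-JUN peak, at 186650713 to 186651159 (fold 3.61), which did not overlap the gained region. Lists of equal length gave 1 gained and 5 lost, and without siFOXF1/2 replicate 1 the gained numbered 8.

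The 3 lost p-c-JUN regions were chr1:186723644-186724349 (folds 4.95 and 5.71 in Sen cells), chr1:186929125-186930069 (4.95 and 5.04) and chr1:186979599-186980179 (4.93 and 4.61). FOXF1 had peaks at the first in Sen replicate 2 and at the second in both Sen lists, and none at the third. Over the genome, 34.5% of lost p-c-JUN regions overlapped FOXF1 in either Sen list. The number lost was 13 without Sen replicate 1, 6 without Sen replicate 2 and 5 without siFOXF1/2 replicate 2.

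H3K27ac peaks in the window were more numerous in the first-deposit Sen lists than in Pro lists of similar or greater length. Sen replicates 1 and 2 held 28 and 24, against 13 and 13 in Pro cells, in lists of 84864 and 60862 against 84304 and 89329 peaks. They covered 3.81% and 2.75% of the window in Sen cells, against 1.98% and 1.76% in Pro cells. The log2 peak number differed by 0.944 ± 0.107 (SE, n = 2 and 2; exact permutation test, two-sided, p = 0.33). With lists limited to 60862 peaks the numbers were 21 and 24 in Sen and 10 and 8 in Pro cells.

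The second-deposit Sen lists were shorter, with 48859 and 26694 peaks, and held 15 and 7 window peaks in Sen replicates 3 and 4. Set against Pro, they gave a log2 difference of −0.31 (exact permutation p = 1), the opposite direction. As a share of the list, the window took 3.30, 3.94, 3.07 and 2.62 peaks per 10000 in Sen replicates 1 to 4. Pro cells had 1.54 and 1.46, so the point values of the groups did not overlap. Their exact 95% intervals mostly did, with 0.821 to 2.64 and 0.775 to 2.49 in Pro cells. In Sen replicates 1 to 4 the intervals were 2.19 to 4.77, 2.53 to 5.87, 1.72 to 5.06 and 1.05 to 5.40. The log2 difference of these shares, with nothing added before the log, was 1.09 ± 0.129 (SE, n = 4 and 2), and its exact permutation p of 0.0667 was the smallest this design can give. This comparison of shares over all 4 Sen libraries was chosen after the data had been seen. It also sets Sen libraries of both deposits against Pro libraries of the first deposit alone.

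Of 40 H3K27ac regions, 4 were gained and 1 lost in Sen replicates 1 and 2 against Pro, beside 4.51% and 9.56% over all regions. Of the gained regions, 3 lay on the lower side of PTGS2, the first at chr1:186564975-186565521 with folds of 3.07 and 4.57. The next, chr1:186587338-186588054, had 4.83 and 4.55, and chr1:186631734-186632628 had 5.81 and 4.91. On the other side of PTGS2, chr1:186684370-186685651 had 4.15 and 4.32, with p-c-JUN gained at the same place. On that lower side Sen replicates 1 and 2 held 5 and 5 peaks, Sen replicates 3 and 4 held 0 and 0, and Pro lists 0 and 1.

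The lost region, chr1:186943621-186944761 in PLA2G4A, had folds of 4.70 and 3.84 in Pro cells and no H3K27ac peak in any Sen list, while FOXF1 and p-c-JUN had peaks there in both states. Each of the 4 gained regions overlapped a FOXF1 peak of Sen replicate 2 and none of Sen replicate 1; of gained H3K27ac regions over the genome, 33.2% overlapped a FOXF1 peak in either Sen list. Of the gained 4, Sen replicate 4 held a peak at the last alone and Sen replicate 3 at none, so with all 4 Sen libraries, or with replicates 3 and 4, 0 regions were gained. Without Sen replicate 1 the gained numbered 15 and the lost 3, without Sen replicate 2 the gained numbered 16, and without Pro replicate 2 the lost numbered 2.

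H3K27ac peaks around the genes were fewer after siFOXF1/2 than in Sen replicates 1 and 2. They numbered 15 and 12, against 28 and 24, in lists of 84673 and 71746 against 84864 and 60862 peaks. The covered share of the window was 2.27% and 1.94%, against 3.81% and 2.75% in Sen cells. The log2 difference was −0.901 ± 0.184 (SE, n = 2 and 2; exact permutation test, two-sided, p = 0.33). Per 10000 peaks the window took 1.77 and 1.67 after siFOXF1/2, below all 4 Sen libraries. The log2 difference of shares was −0.89 ± 0.129, with an exact permutation p of 0.0667, the smallest possible with 2 against 4. This comparison of shares was also chosen after the data had been seen. It sets siFOXF1/2 libraries of the first deposit against Sen libraries of both deposits. In peak number alone, Sen replicates 3 and 4 turned the difference to 0.35.

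Of 41 H3K27ac regions, 4 were lost after siFOXF1/2 and 0 gained, beside 4.26% and 5.51% over all regions. They were the gained regions at 186587338, 186631734 and 186684370, and chr1:186596112-186596618 on the lower side of PTGS2, with folds of 4.09 and 3.91 in Sen replicates 1 and 2. Thus 3 regions were both gained in senescence and lost after siFOXF1/2, in comparisons that share their Sen libraries. Both calls require a peak in Sen replicates 1 and 2, so some overlap is built in. The share of such regions over the genome was not computed, so this is not read as a trait of the window. At 186631734 p-c-JUN had peaks in both siFOXF1/2 lists, with folds of 4.93 and 4.35, and in neither Sen list. At 186684370 it had peaks in both Sen lists and in both siFOXF1/2 lists, with folds of 4.86 and 6.79 in the latter. Without Sen replicate 1 the lost numbered 15 and the gained 3, without Sen replicate 2 the lost numbered 14, without siFOXF1/2 replicates 1 and 2 in turn the gained numbered 1 and 2, and with all 4 Sen libraries 0 were lost.

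Of 40 H3K27ac regions, 7 had a peak in both lists of Sen replicates 1 and 2 and of Pro (17.5%, beside 25.9% over all regions). Of these 7, 6 also had one in both siFOXF1/2 lists, a share that was not computed over the genome. The other, chr1:186731265-186732729 between the genes, had a peak in siFOXF1/2 replicate 1 alone, with a fold of 3.74. The 6 were the PLA2G4A start and the regions starting at 186761879, 186781405, 186787824, 186969860 and 186981927. The last pair overlapped the FOXF1 regions past the end of PLA2G4A. Of 41 regions, 6 were held by all 4 lists of siFOXF1/2 and Sen, which is 14.6%, beside 26.7% over all regions.

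For H3K27ac, the JUN KD libraries are compared with Sen replicates 3 and 4, of their own deposit. They held 13 and 5 H3K27ac window peaks, against 15 and 7, in lists of 74484 and 29606 against 48859 and 26694 peaks. The log2 difference was −0.304 ± 0.79 (SE, n = 2 and 2; exact permutation test, two-sided, p = 0.667), and it turned positive without JUN KD replicate 2 (0.307) or without Sen replicate 3 (0.196). Per 10000 peaks the window took 1.75 and 1.69 in JUN KD cells, against 3.07 and 2.62 in Sen replicates 3 and 4. Over all 4 Sen libraries, a comparison also added later, the log2 difference of these shares was −0.90 ± 0.124. Its exact permutation p of 0.0667 was again the smallest possible. This later comparison sets JUN KD libraries of the second deposit against Sen libraries of both deposits. With lists limited to 26694 peaks, JUN KD lists held 3 and 5 window peaks and the Sen lists 7 and 7.

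Of 20 H3K27ac regions in that comparison, 0 were gained and 0 lost, beside 7.66% and 2.74% over all regions. Equal list length gave 2 lost. Leaving out JUN KD replicate 1 gave 2 gained and 4 lost, JUN KD replicate 2 gave 4 gained, Sen replicate 3 gave 2 gained and 2 lost, and Sen replicate 4 gave 4 lost. The H3K27ac region at the PTGS2 mark was held by both JUN KD lists and by both Sen lists of this deposit.

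The sip300/CBP lists were too short to describe the window. They held 2 and 0 window peaks, against 3 and 1 in their Sen control, in lists of 4186 and 1549 against 8234 and 2046 peaks. The log2 difference was −0.708 ± 0.937 (SE, n = 2 and 2; exact permutation test, two-sided, p = 0.667), and it was 0.085 without sip300/CBP replicate 2. Of 6 regions, 0 were gained and 0 lost, beside 2.02% and 2.69% over all regions. Both sip300/CBP peaks lay within 10 kb of the PTGS2 mark. Leaving out sip300/CBP replicate 2 gave 2 gained, and leaving out control replicates 1 and 2 in turn gave 1 and 3 lost.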

How the data were processed

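The deposited files were 28 peak lists, 1 per library with none pooled. Bowtie2 2.3.4.1, SAMtools 1.9, deepTools 3.1.1, MACS2 3.0.0 and build hg19 are named per the submitters' processing notes, with no parameters. Each deposited peak has a display score, which was not used, a fold enrichment at its summit, −log10 p and −log10 q values, and a summit offset, as the authors' peak caller wrote them. Yeast spike-in DNA was added per the labels' protocols, and the sources used here do not say how it was used. The FOXF1 lists after siFOXF1/2 carry another peak name prefix.

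Only chromosomes 1 to 22 and X were used, which removed 475 of 1123812 peaks. Peaks of the 4 libraries of a comparison were joined over the genome by an overlap of at least 1 bp. Window peak numbers were compared on the log2 scale after adding 1, with an exact two-sided permutation test. Summit pileup k and background λ were solved from fold = (k + 1)/(λ + 1) and the Poisson p, and came out whole within 0.001 of −log10 p for 100% of up to 200 peaks checked per list. As a check of the code, peaks of 1 group were removed from real regions held by all 4 libraries of a comparison. All such planted gains and losses were recovered. This outcome follows from how the regions were chosen and says nothing about detection in short lists.

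The members, lists and tests were chosen with earlier results of these data known. Named regions are those gained or lost (at most 10 per comparison and direction, by the worst rank of −log10 q) and the FOXF1 and p-c-JUN regions of both Sen lists with the 5 highest mean folds. Regions outside that rule (at the gene marks and those held throughout) were chosen after their values were seen. Gene starts in hg19 were not used here, so the region nearest each start and peaks at other prostaglandin pathway genes were not counted. Alternatives were −log10 q of 5 or more, a pseudocount of 0.5, lists of equal length, an overlap of 50% of the shorter peak, each replicate left out, a replicate block and other sets of H3K27ac Sen libraries. Python 3.11.15, pandas 2.3.3, NumPy 2.4.6, SciPy 1.17.1 and matplotlib 3.10.9 were used.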

Additional observations from a re-analysis of the deposited data

How the results depend on the processing

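Of the summary values recomputed under alternatives, 177 were called the same, 49 moved and 8 reversed. A difference in peak number was called the same when it kept its sign, whatever its size. A count had to stay near its main value, and an overlap share within the exact interval of the main share. The cause of a change was not tested beyond what each alternative removes (fewer peaks or libraries). Depth is unknown, and list length, the choice of H3K27ac Sen libraries and 1 replicate of a pair each moved counts. At −log10 q of 5 or more, FOXF1 regions gained in Sen cells numbered 3, those lost after siFOXF1/2 and JUN KD 3 each, H3K27ac regions lost in Sen cells 0 and gained after siFOXF1/2 1, the sip300/CBP difference was 0 and the H3K27ac JUN KD difference was 0.13. With lists of equal length, FOXF1 gained and both FOXF1 lost counts were 0, both FOXF1 knockdown differences and the sip300/CBP difference were 0, p-c-JUN gained in Sen cells numbered 4, p-c-JUN after siFOXF1/2 1 gained and 5 lost, and H3K27ac lost in JUN KD cells 2. With all 4 H3K27ac Sen libraries, 0 regions were gained against Pro and 0 lost after siFOXF1/2. With the Sen libraries of the other deposit (chosen after the data had been seen), the log2 difference was −0.31 for Sen against Pro, with 0 gained and 2 lost, and 0.35 for siFOXF1/2 against Sen, with 2 gained and 0 lost, and 4 were lost in JUN KD cells.

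Leaving out 1 replicate at a time gave ranges. FOXF1 gained in Sen cells ran from 5 to 20, and lost after siFOXF1/2 and JUN KD from 6 to 21 each. p-c-JUN gained in Sen cells ran from 14 to 29; after siFOXF1/2 it ran from 4 to 8 gained and 3 to 13 lost, with differences of −0.359 to 0.15. H3K27ac ran from 4 to 16 gained and 1 to 3 lost in Sen cells, 0 to 3 gained and 5 to 15 lost after siFOXF1/2, 0 to 2 gained and 0 to 3 lost after sip300/CBP, with differences of −1.5 to 0.085, and 0 to 4 gained and 0 to 4 lost in JUN KD cells, with differences of −0.915 to 0.307.

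Replicate numbers carry no stated pairing. With the replicate block every difference keeps its value by construction, for example 2.63 for FOXF1 and 0.944 for H3K27ac in Sen against Pro. These values are among those called the same above, and they are not a check. The exact permutation p with the block was 0.5, the smallest possible, except 1 for p-c-JUN after siFOXF1/2. No block could be made for H3K27ac in JUN KD cells, whose replicates 1 and 2 share no number with Sen replicates 3 and 4.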
